A study of Mus musculus with 2 samples.

Results

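Fn1, Postn, Tgfbi, Thbs1 and Tnc encode 5 secreted glycoproteins of the extracellular matrix. Their transcripts were followed in sorted epithelial cells of the mouse cornea. These genes are 5 of the 31053 in the count matrix. They were chosen on measured values, namely their UMIs (unique molecular identifiers, each standing for 1 captured RNA molecule) by library and by Krt12 share. The Krt12 share of a cell is Krt12 UMIs as a part of Krt12 plus Krt15 UMIs, and it was read in cells with at least 5 UMIs of the pair. Krt12 is the keratin of the differentiating corneal epithelium, and Krt15 is a keratin of the limbus, the rim where corneal stem cells lie. The levels by Krt12 share are therefore a description and carry no test.

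The study made single-cell transcriptomes of GFP-positive cells to ask how stem cell fate is regulated in the ocular epithelium. All cells came from 1 group, corneas of CycB1-GFP mice, whose reporter links green fluorescent protein to Cyclin B1 and so marks cells in the cycle. The labels give 2 replicates and no age, sex or treatment. No sorted GFP-negative or unsorted sample was analysed here, so every value describes cells sorted as GFP-positive. Not all of them scored as S or G2/M, since 5.64% and 6.37% of cells with a Krt12 share above 0.8 scored as G1 in libraries 1 and 2. The epithelium was peeled after Dispase overnight, dissociated with trypsin and sorted for live GFP-positive cells.

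The 5 proteins have different places in the matrix. Fibronectin (Fn1) is assembled into fibrils that integrins bind. Tgfbi and periostin (Postn) share fasciclin domains and bind collagen and integrins, and TGFBI is abundant in the cornea, where mutations of the human gene cause corneal dystrophies. Tenascin-C (Tnc) and thrombospondin-1 (Thbs1) are matricellular proteins, which tune adhesion and signalling more than they build structure. Tenascin-C is known from the limbus and from healing wounds, and thrombospondin-1 activates latent TGF-beta and restrains vessel growth.

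Gene positions follow GENCODE M21 on GRCm38. The minus strand carries Fn1 (ENSMUSG00000026193, chr1:71585520-71653200) and Tnc (ENSMUSG00000028364, chr4:63959785-64047015). The plus strand carries Postn (ENSMUSG00000027750, chr3:54361109-54391037), Tgfbi (ENSMUSG00000035493, chr13:56609523-56639562) and Thbs1 (ENSMUSG00000040152, chr2:118111876-118127133). The libraries read 3' ends, so isoforms of these genes were not separated.

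Promoter sequences of 3 of the genes were taken from RefSeq (GRCm38.p6), as no entry for Fn1 or Thbs1 was at hand. Of these 3, Postn and Tgfbi were both highest at high Krt12 share while Tnc was highest at low Krt12 share. The windows are chr3:54360857-54361106 on the plus strand for Postn, chr13:56609336-56609522 on the plus strand for Tgfbi and chr4:64047016-64047265 on the minus strand for Tnc. Each runs 5′ to 3′ in the direction of the gene from 250 bases before the RefSeq start to the last base before the outermost annotated start, which gave 250 bases for Postn and Tnc and 187 for Tgfbi. Capitals mark matches to any of 4 short motifs, each searched on both strands. TATAAA is the core of a TATA box, and TGANTCA is the AP-1 motif. CATTCC is read by TEAD factors, and CAGAC is a core read by SMAD proteins.
Postn: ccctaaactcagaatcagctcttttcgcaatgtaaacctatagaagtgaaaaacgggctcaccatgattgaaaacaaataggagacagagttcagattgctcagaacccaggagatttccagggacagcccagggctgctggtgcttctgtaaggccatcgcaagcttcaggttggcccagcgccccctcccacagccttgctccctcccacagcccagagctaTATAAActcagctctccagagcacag
Tgfbi: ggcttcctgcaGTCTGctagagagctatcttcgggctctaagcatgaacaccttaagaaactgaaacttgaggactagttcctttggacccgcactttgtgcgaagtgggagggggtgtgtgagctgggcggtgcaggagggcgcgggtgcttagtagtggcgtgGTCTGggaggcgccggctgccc
Tnc: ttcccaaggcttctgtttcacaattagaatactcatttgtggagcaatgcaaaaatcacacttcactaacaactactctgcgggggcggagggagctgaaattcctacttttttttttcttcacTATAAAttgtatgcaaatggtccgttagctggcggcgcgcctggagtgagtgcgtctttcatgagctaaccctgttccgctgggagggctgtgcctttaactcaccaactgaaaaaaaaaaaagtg
Postn held 1 TATAAA, on its own strand and beginning 26 bases before the start. Tnc also held 1, beginning 126 bases before the start. Among all 32851 promoters in the table, 12.4% hold TATAAA on either strand of the same 250 bases and 7.59% on the gene strand. Tgfbi held CAGAC 2 times on the other strand, 239 and 85 bases before the start, and 34.2% of promoters hold it in the same 187 bases. No match overlapped another. TGANTCA (6.75% of promoters in 250 bases and 5.14% in 187) and CATTCC (12.6% and 10.1%) were not among these letters in any of the 3 windows. A match is a run of letters and not a binding site.

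The barcodes numbered 3458 in library 1 (19001107 UMIs) and 3294 in library 2 (18030874 UMIs), and 5 barcode sequences occurred in both. Of these, 3187 and 3001 cells had at least 500 genes and under 20% mitochondrial UMIs and were kept. Their median depth was 5571 and 5886 UMIs. Markers of the labelled tissue were present, with 8 of 8 corneal epithelial markers detected in each library at a summed 35046 and 37485 CPM (UMIs of a gene or list per 1000000 UMIs of all genes in the same cells). The Krt12 share was under 0.4 in 663 and 959 cells, 0.4 to 0.8 in 161 and 164, and above 0.8 in 2304 and 1821, and 59 and 57 cells had too few keratin UMIs to place. For brevity these ranges are called low, middle and high Krt12 share. The median depth was 5002 and 5096 UMIs at low, 6431 and 5965 at middle and 5784.5 and 6375 at high Krt12 share. Intervals in brackets are exact 95% limits and cover counting error only.

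Transcripts from stromal cells, which make matrix proteins beneath the epithelium, were looked for in the same cells. Col1a1, the main stromal collagen gene, had 0 UMIs in both libraries, and Lum, the keratocyte proteoglycan lumican, had 0 in library 1 and 1 in library 2. Of 10 stromal markers, 3 were detected in library 1 and 4 in library 2, with 22 and 11 UMIs in sum, or 1.17 and 0.618 CPM. The sum lay between 0 and 1.37 CPM across the keratin ranges of both libraries. The 1 cell with a Lum UMI held 3 Tgfbi UMIs and none of the other 4 genes. The 22 and 11 cells with any stromal marker held 13 and 12 Fn1 UMIs, of 1735 and 2456 in all, and 127 and 75 Tgfbi UMIs, of 14210 and 11662, and they held no UMI of Postn, Thbs1 or Tnc. The defining stromal collagen was thus at 0 in the cells that gave these values.

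Immune cells were the other source checked. The 6 and 14 cells with a Ptprc UMI held 2 and 3 Fn1 UMIs and 9 and 16 Tgfbi UMIs, no Postn or Tnc UMI, and 0 and 2 Thbs1 UMIs. In 15 cells with Ptprc and fewer than 5 keratin UMIs, which had a median depth of 1941 UMIs, Fn1, Postn and Tnc were found in 0 of 15, which by a count of 3 allows a share of up to 20% (exact upper limit 21.8%). Tgfbi was found in 4 of these 15 (26.7%, 7.79 to 55.1%) and Thbs1 in 1 (6.67%), and free RNA can give such UMIs. Immune markers summed to 351 and 827 UMIs (18.7 and 46.5 CPM), and in library 2 they stood at 46.1 CPM at low and 8.75 CPM at high Krt12 share, against 6.65 and 7.58 CPM in library 1. Their part in the levels by Krt12 share was not tested. Summed markers of endothelium gave 8 and 5 UMIs, of melanocytes 66 and 103, and of nerve 20 and 28.

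Tgfbi was found in most cells, and its level was higher at each step from low to high Krt12 share, which is the direction the choice of genes fixed. Its level was 278.5 CPM (262 to 296; 1005 UMIs) in library 1 and 201 CPM (189 to 214; 1014 UMIs) in library 2 at low Krt12 share. In the middle range it was 575 CPM (532 to 620) and 592 CPM (548 to 638). At high Krt12 share it was 899 CPM (883 to 915; 12444 UMIs) and 861 CPM (844 to 878; 9942 UMIs). Both libraries gave the same order of the 3 ranges with no overlap. High over low Krt12 share came to 1.89 ± 0.29 on the log2 scale (SD, n = 2 libraries), or 3.71-fold.

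Fn1 showed the same order of ranges with a wider gap between the libraries. At low Krt12 share its level was 15.2 CPM (11.5 to 19.8; 55 UMIs) and 16.3 CPM (13.0 to 20.2; 82 UMIs). In the middle range it was 85.5 CPM (69.6 to 104) and 144 CPM (123 to 168). At high Krt12 share it was 114 CPM (108 to 119; 1573 UMIs) and 191 CPM (183 to 199; 2206 UMIs). The step from low to middle share was the wider one in each library. High over low Krt12 share was 3.22 ± 0.46 on the log2 scale, or 9.35-fold, with 7.45-fold in library 1 and 11.7-fold in library 2.

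Postn was sparse, and its level depended on the library as well as on the keratins. At low Krt12 share it was 0.831 CPM (0.171 to 2.43; 3 UMIs) in library 1 and 5.56 CPM (3.70 to 8.04; 28 UMIs) in library 2. In the middle range it was 2.54 CPM (3 UMIs) and 27.5 CPM (31 UMIs). At high Krt12 share it was 7.29 CPM (5.94 to 8.86; 101 UMIs) and 36.5 CPM (33.1 to 40.1; 421 UMIs). Library 2 at low share thus overlapped library 1 at high share in counting error, so the libraries are kept apart here. Within each library the high range lay above the low one, by 8.77-fold and 6.55-fold, with a mean of 2.92 ± 0.30 on the log2 scale.

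Tnc ran the other way. Its level at low Krt12 share was 30.8 CPM (25.3 to 37.0; 111 UMIs) in library 1 and 40.9 CPM (35.5 to 46.9; 206 UMIs) in library 2. In the middle range it was 8.46 CPM (10 UMIs) and 9.74 CPM (11 UMIs), and at high Krt12 share 2.53 CPM (1.76 to 3.52; 35 UMIs) and 1.13 CPM (0.599 to 1.93; 13 UMIs). Every low value lay above every high one. Low over high Krt12 share was 21.03-fold (12.2-fold and 36.4-fold in the libraries), a log2 ratio of high over low of -4.39 ± 1.12. Cells of low Krt12 share gave 19.2% of all UMIs in library 1 and 28.3% in library 2, and they held 66.1% and 88.4% of the Tnc UMIs.

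Thbs1 had no common direction of that size. At low Krt12 share it was 31.9 CPM (26.3 to 38.3; 115 UMIs) in library 1 and 12.9 CPM (9.97 to 16.5; 65 UMIs) in library 2. The middle range gave 18.6 CPM (22 UMIs) and 15.9 CPM (18 UMIs), and the high range 14.4 CPM (12.5 to 16.6; 200 UMIs) and 11.8 CPM (9.88 to 13.9; 136 UMIs). The low range of library 1 stood above the other values, though its interval overlapped that of the middle range, and the other 5 values overlapped in their intervals. The log2 ratio of high over low was -0.64 ± 0.71, with -1.14 in library 1 and -0.13 in library 2.

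**Figure D1:**
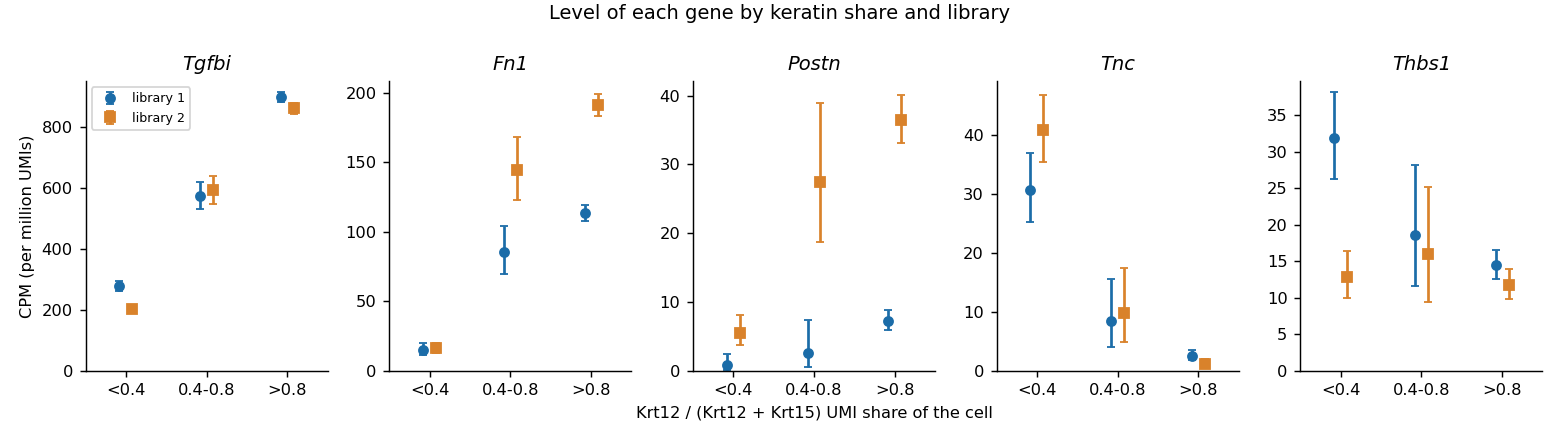
Level of each of the 5 genes (CPM, axes from 0, 1 scale per gene) by Krt12 share range, with circles for library 1, squares for library 2 and bars for the exact 95% counting interval. Tgfbi, Fn1 and Postn stand higher at high than at low Krt12 share in both libraries, Tnc stands lower, and the Thbs1 values of library 2 lie within 11.8 to 15.9 CPM.

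Of the 5 genes, 3 were at least 2-fold higher at high Krt12 share in both libraries (Fn1, Postn and Tgfbi) and 1 was at least 2-fold lower (Tnc). Among all 11678 genes tested, 4.81% were higher and 7.08% lower by the same criterion, and since the genes were chosen on this pattern nothing is read from their count. Just below the limit of 0.4, at shares of 0.2 to 0.4, Fn1 stood at 37.8 and 66.7 CPM and Tgfbi at 397 and 403 CPM. Just above it, at 0.4 to 0.6, Fn1 stood at 79.3 and 160 CPM and Tgfbi at 481 and 552 CPM. Tnc moved from 29.4 and 16.7 CPM to 12.3 CPM in both libraries, Postn from 0 and 8.34 to 3.52 and 19.7 CPM, and Thbs1 from 47.6 and 25.03 to 17.6 and 9.86 CPM.

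At the upper limit of 0.8 the steps of Fn1 and Tgfbi were smaller. From shares of 0.6 to 0.8 to shares of 0.8 to 0.9, Fn1 went from 92.1 and 139 to 114 and 188 CPM, and Tgfbi from 672 and 614 to 700 and 726 CPM. Postn went from 1.70 and 32.5 to 4.57 and 24.3 CPM, Thbs1 from 18.8 and 19.8 to 25.2 and 17.9 CPM, and Tnc from 5.11 and 8.49 to 11.4 and 6.39 CPM. The ends of the scale lay farther apart. At shares under 0.1 and at 0.95 and above, Fn1 stood at 7.01 and 10.6 against 116 and 191 CPM, and Tnc at 30.7 and 43.6 against 1.33 and 0.487 CPM. Thbs1 was highest at 0.2 to 0.4 in library 1, and in library 2 that range (25.03 CPM, 11.4 to 47.5) overlapped the range of 0.9 to 0.95 (27.0 CPM, 14.8 to 45.3).

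**Figure D2:**
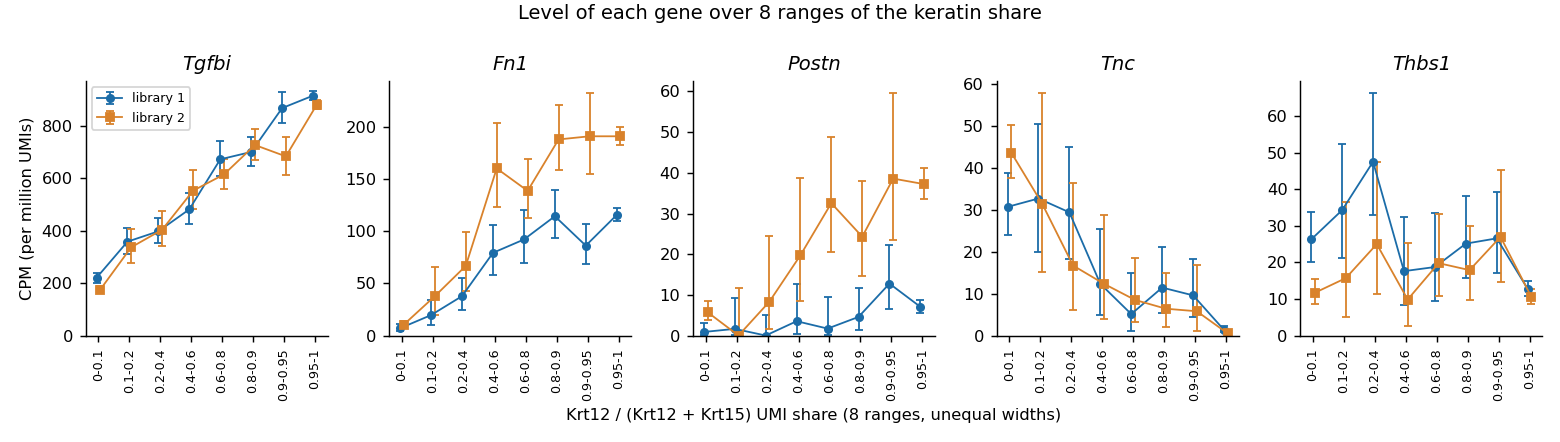
Level of each of the 5 genes (CPM, axes from 0, 1 scale per gene) over 8 ranges of Krt12 share of unequal width, with 1 line per library and bars for the exact 95% counting interval. Fn1 in library 1 goes from 7.01 CPM in the lowest range to 116 CPM in the highest, and Tnc from 30.7 to 1.33 CPM.

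Cells with a UMI were counted after each cell had been thinned to 1900 UMIs, since depth differed between the ranges. This left out 20 and 71 cells at low Krt12 share, where 643 and 888 entered, and 2058 and 1637 entered at high share. After thinning, a Tgfbi UMI was present in 34.2% (30.5 to 38.0%) and 30.7% (27.7 to 33.9%) of low share cells and in 77.4% (75.5 to 79.2%) and 77.5% (75.4 to 79.5%) at high share. For Fn1 the values were 3.73% (2.41 to 5.50%) and 2.70% (1.74 to 3.99%) against 18.8% (17.1 to 20.5%) and 30.3% (28.1 to 32.6%). For both genes the shares at low and high Krt12 share did not overlap in their intervals.

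The other 3 genes were found in a small part of the cells. Postn was seen in 1 of 643 and 11 of 888 thinned cells at low share, and in 1.70% (1.19 to 2.36%) and 6.29% (5.16 to 7.58%) at high share. Tnc was seen in 4.51% (3.04 to 6.41%) and 8.33% (6.60 to 10.3%) at low share, and in 12 of 2058 and 3 of 1637 cells at high share. Thbs1 was seen in 6.53% (4.75 to 8.73%) and 2.14% (1.29 to 3.32%) at low share and in 2.28% and 2.02% at high share. Against the 15 immune cells, of similar depth, these Thbs1 shares did not exceed the 6.67% found there (0.169 to 31.9%), and the Tgfbi shares at low Krt12 share lay within the interval of those cells. The shares of Fn1, Postn and Tnc at low Krt12 share lay under what 0 of 15 allows. None of these shares is therefore told apart from free RNA by these 15 cells alone. At high Krt12 share, Tgfbi (77.4% and 77.5%) lay above the interval of the immune cells (7.79 to 55.1%). Fn1 in library 2 (30.3%) lay above its limit of 21.8% there, while Fn1 in library 1 (18.8%) and Postn did not. The Tnc intervals at low share lay above those at high share (0.302 to 1.02% and 0.0378 to 0.535%). The part of free RNA in these shares was not tested. Without thinning, Tgfbi was seen in 62.6% and 55.8% of cells at low and 90.9% and 94.8% at high share, Fn1 in 6.94% and 6.99% against 40.1% and 61.0%, and Postn in 0.452% and 2.503% against 4.04% and 18.5%. Tnc was found unthinned in 12.4% and 15.02% against 1.26% and 0.659%, and Thbs1 in 12.8% and 6.15% against 7.25% and 6.70%. The most UMIs of 1 gene in 1 cell were 38 for Tgfbi, 10 for Fn1, 6 for Tnc, 5 for Thbs1 and 4 for Postn.

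The libraries themselves differed most in Postn. Within high Krt12 share, library 2 over library 1 was 5.00-fold for Postn (4.01 to 6.27) and 1.68-fold for Fn1 (1.58 to 1.80). Tgfbi was at 0.958 (0.933 to 0.984) of its level in library 1, and Thbs1 at 0.816 (0.651 to 1.02). Tnc was 2.24-fold lower in library 2 at high share but 1.33-fold higher (1.05 to 1.69) at low share. Thbs1 was 2.47-fold lower in library 2 at low share. Each library is 1 sample, so these gaps have no replicate error, and the labels do not link the library numbers to the replicate numbers.

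Joint detection within a keratin range is given as a description, since cells with more UMIs show more of every gene. At high Krt12 share, Fn1 stood at 220 CPM (184 to 262) in the 93 cells of library 1 with a Postn UMI, against 109 CPM (103 to 115) in the others. In library 2 the same values were 207 CPM (190 to 226) in 336 cells and 187 CPM (178 to 196). Fn1 was thus higher beside Postn in both libraries, though the intervals of library 2 overlapped. At low Krt12 share, cells with a Thbs1 UMI had Tnc at 64.4 CPM (44.0 to 90.9) against 25.4 CPM (20.1 to 31.6) in library 1, and at 44.1 CPM (25.2 to 71.6) against 40.7 CPM (35.1 to 46.9) in library 2. Not every pair is given, and the libraries could disagree. Low share cells with an Fn1 UMI had Tnc at 7.54 CPM (2 UMIs) against 32.6 CPM in library 1. In library 2 the values were 67.7 CPM (29 UMIs) and 38.4 CPM. Cells of low share with a Tnc UMI had Tgfbi at 341 CPM (292 to 397) against 268 CPM (251 to 287) in library 1. In library 2 Tgfbi stood at 236 CPM (204 to 271) against 195 CPM (182 to 209), with overlapping intervals. In the cells with a Ptprc UMI Tgfbi stood at 443 and 402 CPM. Of the Ptprc UMIs, 2 and 5 lay in cells of high Krt12 share, so these cells do not measure free RNA alone. Whether the Tgfbi UMIs in the Tnc cells were made there was not tested.

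Genes with the most similar pattern were sought for Fn1 and Tgfbi, which stood at 20 CPM or more over all kept cells. Likeness was Pearson's r of log2(CPM + 1), centred within library, over 12 sums (2 libraries, 3 keratin ranges, G2/M and S cells) and among 5795 genes. The sums share libraries and the keratin axis, so r is a description. Tgfbi was closest to Sparc (r = 0.99), a collagen-binding matricellular protein, to Col17a1 (0.99), the hemidesmosomal collagen, and to Krt12 itself (0.99). Fn1 was closest to Akr1c13 (0.98), Mxra7 (0.98) and Palld (0.98), which encodes an actin-bundling protein. Between the 5 genes, r was 0.93 for Fn1 with Tgfbi, 0.93 for Fn1 with Postn, 0.90 for Tgfbi with Postn and -0.94 for Tgfbi with Tnc.

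The first measure that played no part in choosing the genes was the cell cycle phase. Within high Krt12 share, 1592 and 1298 cells scored as G2/M and 582 and 407 as S, and UMIs were summed per library and phase. None of the 5 genes passed the threshold, while 22.6% of the 11009 genes tested did, 9.89% higher and 12.7% lower (edgeR's quasi-likelihood test, adjusted p under 0.05; 3649 genes had an unadjusted p under it, as did 1 of the 5, and DESeq2 called 0). Fn1 stood at 98.0 CPM in S and 118 in G2/M in library 1, and at 200.5 and 190.3 in library 2, a log2 fold change of 0.02 (SE 0.08, adjusted p = 0.876). Tgfbi stood at 917 and 884 CPM and at 827 and 869 CPM (-0.05, SE 0.05, adjusted p = 0.537). For both, the libraries moved in opposite directions, by little for Tgfbi. For Fn1 the counting intervals of S and G2/M did not overlap in library 1 (88.0 to 109 and 112 to 125 CPM). They overlapped in library 2 (183 to 219 and 181 to 200 CPM).

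Thbs1 had the lowest p of the 5 by phase. It stood at 15.2 CPM in S and 14.7 in G2/M in library 1, and at 17.9 and 9.66 in library 2, a log2 fold change of -0.46 (SE 0.19, adjusted p = 0.0704). Without library 1 the value was -0.89 and without library 2 it was -0.05. Postn (8.45 and 7.08 CPM, 38.2 and 37.4 CPM; -0.15, SE 0.17, adjusted p = 0.568) and Tnc (2.82 and 2.16 CPM, 1.19 and 1.18 CPM; -0.34, SE 0.53, adjusted p = 0.707) did not pass either. Over all kept cells, where keratin ranges are mixed, Tgfbi passed at -0.15 (adjusted p = 0.0266; its range over 8 alternatives was 0.0266 to 0.935). The p-values of this and the following fits rest on 2 libraries and on an error term that edgeR shares across genes. They can therefore be small where the libraries differ in size or sign. The spread between the libraries may be technical, since the labels do not say that the libraries came from separate mice.

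The second was the level of immediate early genes, which rise within minutes of handling or growth factor contact. Cells of high Krt12 share were divided by the share of 14 such genes in their UMIs, with limits of 0.552% and 1.04% in library 1 and 0.224% and 0.447% in library 2, and the 768 and 607 cells with the highest shares were set against as many with the lowest. None of the 4 genes that could be tested passed, where 1.73% of 10485 genes did, 1.1% higher and 0.629% lower (1339 had an unadjusted p under 0.05, none of the 4 among them, and DESeq2 called 0 of the 4). Fn1 stood at 102 CPM in the lower and 154 in the upper cells of library 1 but at 197 and 189 in library 2 (log2 fold change 0.28, SE 0.16, adjusted p = 0.507). Postn stood at 7.96 and 9.65 CPM and at 34.0 and 39.7 CPM (0.25, SE 0.19, adjusted p = 0.638). Tgfbi stood at 904 and 815 CPM and at 879.9 and 848 CPM (-0.08, SE 0.10, adjusted p = 0.820), and Thbs1 at 13.3 and 17.4 CPM and at 11.2 and 11.1 CPM (0.24, SE 0.23, adjusted p = 0.724). Tnc had too few UMIs for this fit. The classes are ranges of a score, with 173 and 265 cells of library 1 and 123 and 247 of library 2 within 10% of the lower and upper limits.

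**Figure D3:**
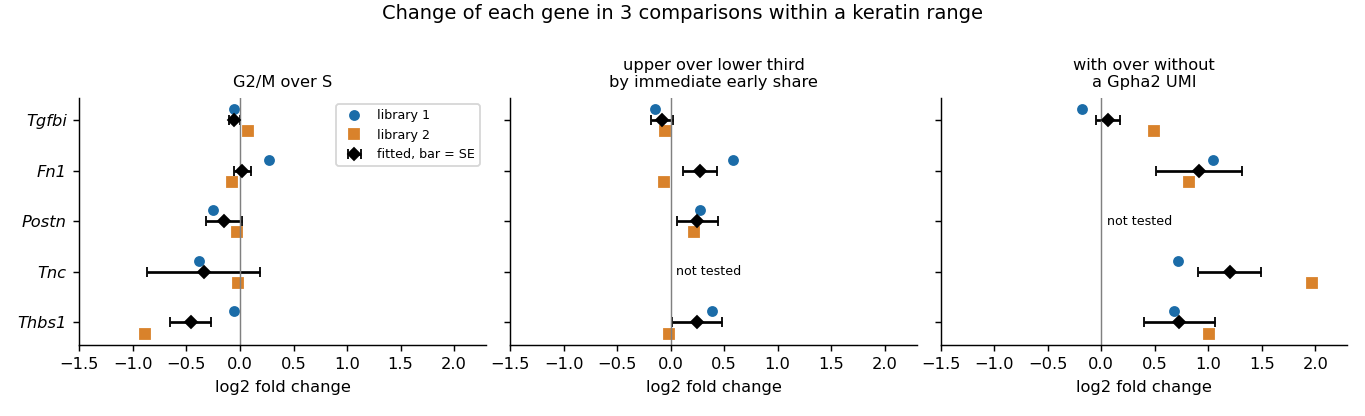
Log2 fold change of each tested gene in the fits by phase, by immediate early share and by Gpha2, as a black diamond with a bar of 1 standard error (edgeR, n = 2 libraries), with circles for library 1 alone and squares for library 2 alone. Tnc by Gpha2, at 1.20, is the value that passed the threshold.

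The third divided the cells of low Krt12 share by Gpha2, which encodes a glycoprotein hormone subunit and is known as a marker of limbal cells. Among cells with at least 1900 UMIs, 497 and 772 had a Gpha2 UMI and 146 and 116 had none. Tnc stood at 20.5 CPM (17 UMIs) without and 33.8 CPM (93 UMIs) with Gpha2 in library 1, and at 11.5 CPM (7 UMIs) and 44.9 CPM (194 UMIs) in library 2. Cells with Gpha2 were the higher ones in both, with overlapping counting intervals in library 1. The log2 fold change was 1.20 (SE 0.29, adjusted p = 0.00124, higher in 2 of 2 libraries), with 0.72 in library 1 alone and 1.97 in library 2 alone. It was the 1 of 4 tested genes to pass, where 3.03% of 9442 genes were called higher and 5.42% lower.

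Conjunctival markers moved with the same division. Their sum (Krt13, Krt4, Krt19, Krt8 and Muc4) was 1995 and 5150.3 CPM in cells without Gpha2 and 756 and 1446 CPM in cells with it, and 5 of 5 were called lower. Krt13, a keratin of the conjunctiva, stood at 689 and 1547 CPM without and at 201 and 369 CPM with Gpha2. The summed limbal markers (Krt15, Gpha2, Ifitm3 and Cd63) were also lower with Gpha2. They stood at 10226 and 16950.5 CPM without and at 8451 and 11734 CPM with it. Of these 4 markers 2 were called higher with Gpha2 and 1 lower, and 4 of 8 corneal epithelial markers were called lower. G1 calls made up 10.3% and 21.6% of cells without and 2.82% and 7.25% of cells with Gpha2. In cells with 0 Krt13 UMIs, an alternative added after the data were seen, 72 and 28 cells without Gpha2 were set against 346 and 502 with it, and Tnc gave 0.59 (adjusted p = 0.881). The adjusted p for Tnc ran from 0.000213 to 0.881 over 9 alternatives, of which 5 kept it past the threshold, and it did not pass with DESeq2 (1.25, adjusted p = 0.457), without the library block (1.23, adjusted p = 0.299) or with thinned cells (1.46, adjusted p = 0.0686). The part of the conjunctival markers in the Tnc result was not tested beyond this.

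The remaining genes did not pass by Gpha2. Fn1 stood at 8.45 CPM without and 17.4 with Gpha2 in library 1, and at 9.84 and 17.4 in library 2 (log2 fold change 0.91, SE 0.40, adjusted p = 0.165). Thbs1 stood at 21.7 and 34.9 CPM and at 6.56 and 13.2 CPM (0.73, SE 0.33, adjusted p = 0.179). Tgfbi stood at 307 and 271 CPM and at 148 and 208 CPM (0.07, SE 0.11, adjusted p = 0.823). Fn1 and Thbs1 were higher with Gpha2 in both libraries, and Tgfbi in 1 of 2. Postn had too few UMIs for the fit.

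**Figure D4:**
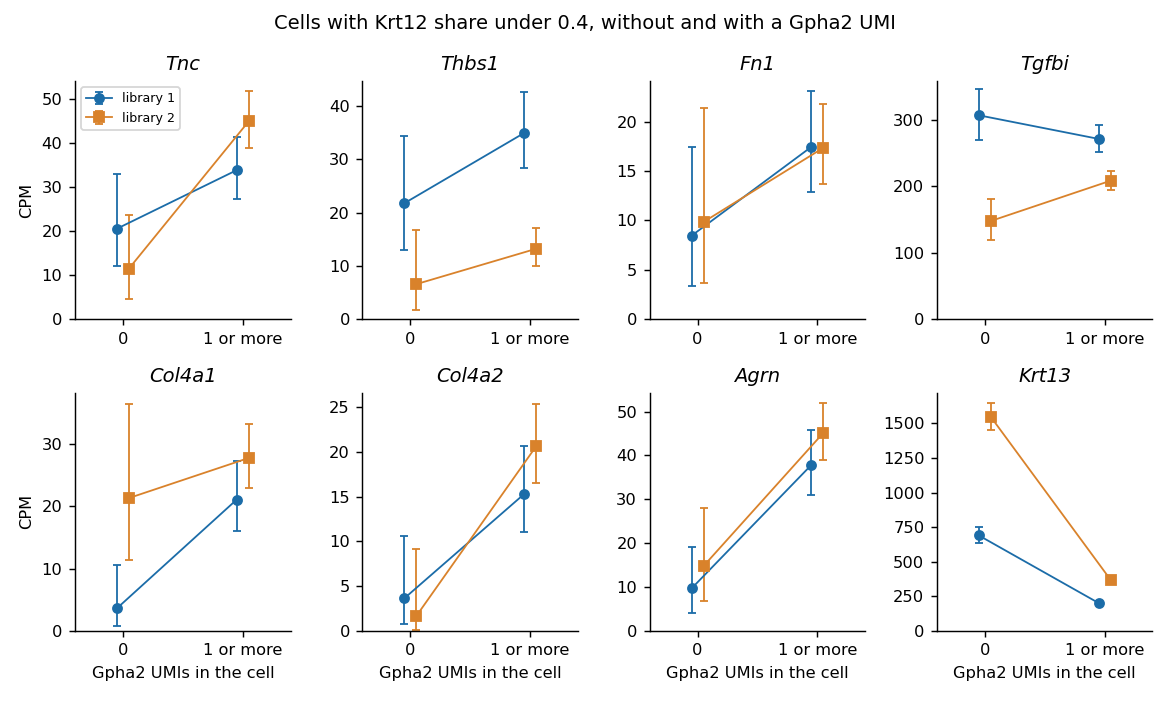
Levels (CPM, axes from 0, 1 scale per gene) of Tnc, Thbs1, Fn1, Tgfbi, Col4a1, Col4a2, Agrn and Krt13 in low Krt12 share cells with 0 and with 1 or more Gpha2 UMIs, with circles for library 1, squares for library 2 and bars for exact 95% counting intervals. Tnc is higher with Gpha2 in both libraries (20.5 to 33.8 CPM and 11.5 to 44.9 CPM) while Krt13 is lower.

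Other genes of the same matrix were read from 5 lists, in the contrast of high against low Krt12 share, in which 29.5% of the 11678 genes tested were called (14.2% higher, 15.3% lower; median log2 fold change 0.01). Of 36 matricellular and adhesive glycoproteins, 17 could be tested, 7 rose and 8 fell, with a median of 0.05. Sparc rose from 46.0 to 157 CPM in library 1 and from 17.1 to 86.8 in library 2 (log2 fold change 2.05, SE 0.14, adjusted p = 6.33e-08). Cyr61, a CCN protein that binds integrins, rose from 47.4 to 150.2 CPM and from 19.9 to 73.0 CPM (1.79, adjusted p = 7.55e-09). Fbln1 (-0.73, adjusted p = 0.00188) and Ecm1 (-0.59, adjusted p = 0.00117) fell. Ctgf, the CCN relative of Cyr61, fell from 38.2 to 1.23 CPM and from 26.0 to 0.866 CPM (-4.89, adjusted p = 3.13e-10). It lay outside the rule for naming genes because of its mean level and was picked after its values were seen. Nov, another CCN gene, had 0 UMIs at low share in both libraries and 30 and 41 at high share.

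Basement membrane genes were also divided. Of 19, 13 could be tested, 3 rose and 5 fell, with a median log2 fold change of 0.08. The laminin chain genes went opposite ways, since Lamb1 rose from 4.16 to 43.3 CPM and from 1.79 to 54.2 CPM (4.16, SE 0.27, adjusted p = 7.57e-07) while Lamb2 fell from 23.8 to 4.84 CPM and from 50.7 to 9.53 CPM (-2.33, adjusted p = 2.08e-08). Col7a1, the anchoring fibril collagen, rose by 0.83 on the log2 scale (adjusted p = 0.000897). Picked after their values were seen, the collagen IV genes Col4a1 (-4.44), Col4a2 (-3.83) and Col4a6 (-4.08) fell and Nid1, which links laminin to collagen IV, rose (5.16, adjusted p = 3.50e-08), as Col4a5 fell by 0.96.

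Receptors, the TGF-beta pathway and proteases had smaller parts called. Of 18 receptor genes tested, 6 rose and 4 fell (median 0.09), with Itga3 (1.17, adjusted p = 2.00e-06) and Itgb4 (0.74), integrin chains of basal cells, higher, and Itgav (-0.55, adjusted p = 0.00473), a chain of fibronectin-binding integrins, and Dag1 (-0.48) lower. Itgb8 (-5.81) and Sdc2 (-0.73) were the other genes that fell, and Itga6, Sdc4, Itga2 and Sdc1 the others that rose (0.37 to 2.12), all outside the naming rule. Of 19 TGF-beta pathway genes, 5 rose and 4 fell (median -0.16), with the receptor genes Tgfbr1 (1.78, adjusted p = 9.84e-08) and Tgfbr3 (1.01) higher and Ltbp4 (-1.36, adjusted p = 1.25e-07), which stores latent TGF-beta, lower. Outside the naming rule, Tgfb1 (0.36) and Tgif1 (0.37) rose, and the receptor gene Tgfbr2 (-0.95), Bambi (-1.27) and Ltbp3 (-0.76) fell. Of 16 proteases and inhibitors, 2 rose and 4 fell (median -0.33), among them the gene of the crosslinking enzyme Tgm2 (1.21) and the plasminogen activator gene Plat (0.83), which rose, and the protease gene Adamts1 (-3.30, adjusted p = 1.29e-09), which fell. Mmp15 (-2.90), Timp2 (-1.81) and Loxl4 (-2.96) also fell, outside the naming rule. Conjunctival markers summed to 1045 and 1938 CPM at low and 125 and 149 CPM at high share, and their part in these calls was not tested. Over the 5 lists 48 of 83 tested genes were called (57.8%, against 29.5% of all 11678 genes tested). With DESeq2 31 were called and without the library block 26, where 1445 and 1520 of the 11678 genes were.

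**Figure D5:**
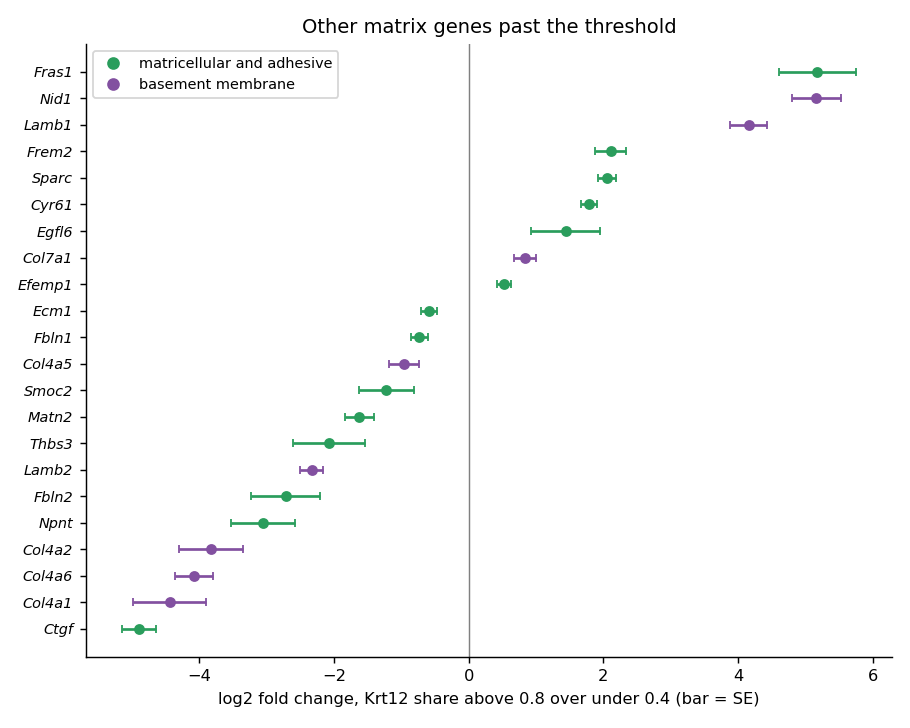
Log2 fold change of high over low Krt12 share (edgeR, n = 2 libraries, bars of 1 standard error) for the 22 genes of the matricellular (green) and basement membrane (purple) lists that passed the threshold and had UMIs in both ranges. Nid1 (5.16) and Fras1 (5.18, with 0 UMIs at low share in library 2) lie at the upper end and Ctgf (-4.89) and Col4a1 (-4.44) at the lower end.

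By Gpha2, which shares its low Krt12 share cells with that contrast, 5 of 11 basement membrane genes tested rose and 0 fell, with a median log2 fold change of 1.04 against 0.01 over all genes (6 did not pass, and 8.45% of all genes were called). The 5 calls came to 0 with DESeq2, without the library block or in cells with 0 Krt13 UMIs, and to 1 of 6 with thinning. Agrn, a basement membrane proteoglycan, rose from 9.66 to 37.8 CPM and from 14.8 to 45.1 CPM (1.76, SE 0.32, adjusted p = 2.24e-06), and Col18a1 rose by 0.93 (adjusted p = 0.0179). The other 3, collagen IV genes picked after their values were seen, were Col4a1 (1.05), Col4a2 (2.62) and Col4a6 (1.11), which had fallen from low to high Krt12 share. Of 8 matricellular genes 3 rose and 1 fell (median 0.56). Ctgf rose from 12.1 to 46.2 CPM and from 13.1 to 28.5 CPM (1.58, adjusted p = 4.16e-05), and Efemp1 rose by 1.06 (adjusted p = 4.53e-13). Outside the naming rule, Matn2 (1.33) rose, and Ecm1 (-0.69) fell in the fit but went from 139 to 61.8 CPM in library 1 and from 60.7 to 64.1 CPM in library 2. Of 16 receptor genes 4 rose, among them Itga3 (1.68) and Itgb4 (0.68) and, outside the naming rule, Itga6 (0.33) and Itga1 (0 UMIs without and 18 and 25 with Gpha2), and 2 fell, Sdc1 (-0.58) and Cd44 (-0.44). Of 17 TGF-beta pathway genes 2 rose, Tgfb1 (0.77) and Ltbp4 (0.62), and of 13 protease genes 2 rose, Adamts1 (0.75) and Timp3 (0.62). No gene of the 5 lists passed in cells with 0 Krt13 UMIs or without the library block, and 2 did with DESeq2. Over all genes, 50 of 8267, 10 of 9442 and 143 of 9442 were called in these settings, and 357 of 6782 with thinning.

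By phase, in 75 tests over the 5 lists, 4 rose and 10 fell in G2/M (18.7%, against 22.6% of all genes), among them Sparc (-0.29, adjusted p = 0.00322), Tgfb1 (-0.79, adjusted p = 2.07e-12) and Nid1 (-0.49), which fell, and Lamb1 (0.41, adjusted p = 0.00407), which rose. Those 14 calls came to 1 with DESeq2 and 0 without the library block, where 473 and 208 of all 11009 genes were called. By immediate early share 3 of 68 passed (4.41%, against 1.73% of all genes). With DESeq2 1 passed and without the block 0, where 50 and 10 of all 10485 genes did. With edgeR, Cyr61 (1.93, adjusted p = 1.02e-07) and Skil (0.77, adjusted p = 0.0272), a brake on SMAD signalling, rose. Timp1 (-1.42, adjusted p = 0.0368) fell and was picked after its values were seen. Cyr61 thus rose with immediate early share and with Krt12 share, while the 4 tested glycoprotein genes did not pass with the former. Cyr61 is not among the 14 genes of the score, and whether it moved as an immediate early gene itself was not tested.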

How the data were processed

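The deposited counts are whole numbers of UMIs per gene and barcode from 10x Chromium 3' v3 libraries, made by the authors with software whose names and versions are given as Cell Ranger 3.1.0 and Seurat 5.0.0 with GRCm38 and mm10, per the submitters' processing notes, with no role for each. Barcode endings gave 2 libraries of 1 group. The genes studied and the gene lists were chosen with earlier results of these data known. Cells with at least 500 genes and under 20% mitochondrial UMIs were kept, and doublets were not removed.

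Phases were scored per library with scanpy 1.11.5 on counts scaled to 10000 per cell (43 S and 54 G2/M genes, 3 under newer symbols). UMIs were summed per library and class. Each fit had 4 sums and 1 residual degree of freedom and used edgeR 4.0.16 in R 4.3.3 (quasi-likelihood, robust, TMM, filterByExpr) with library as a block, because both sums of a library come from 1 sample. Benjamini-Hochberg adjustment ran over all genes tested, with a threshold of 0.05. The fits were also run on simulated counts with a dispersion common to all genes. That run does not measure the error rate of the calls reported here. From each list and comparison, up to 2 genes per direction were named, those with the largest change past the threshold that had 1 sign across libraries and averaged 20 CPM or more. All 5 glycoprotein genes were named throughout, with the 3 most similar genes for each one at 20 CPM or more. Alternatives were DESeq2 1.42.0, other size factors, no block, no filter on low counts, thinning, other limits, stricter cells and each library alone. Gene names are those of the matrix, positions those of GENCODE M21 and promoters those of RefSeq. Some list results are not reported here by name.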

Additional observations from a re-analysis of the deposited data

Results flagged for a closer look

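The comparisons left out barcodes that failed the cell filters (271 in library 1 and 293 in library 2) and kept cells with fewer than 5 Krt12 and Krt15 UMIs (59 and 57). A level is listed where it was above the level of 3 UMIs, which is 13.2 and 12.8 CPM in the barcodes and 22.1 and 34.2 CPM in the cells. In the barcodes that failed, the level of Fn1 was 96.8 and 316 CPM in library 1 and 2, and that of Tgfbi 431 and 734 CPM. Thbs1 stood at 39.6 and 38.4 CPM there, Tnc at 17.6 CPM in library 1 and Postn at 42.7 CPM in library 2. These barcodes mix cells of low depth with cells of high mitochondrial share. In the cells with few keratin UMIs, Fn1 stood at 44.2 and 57.0 CPM and Tgfbi at 604 and 433 CPM. Tnc stood at 88.3 CPM in library 1 there (45.6 to 154; 12 UMIs), against 30.8 CPM in the cells of low Krt12 share in that library, while in library 2 it stood at 34.2 CPM (3 UMIs) against 40.9 CPM. Immune markers in these cells summed to 1538 and 5183 CPM, against 6.65 and 46.1 CPM at low Krt12 share, and their part was not tested. The median depth of the cells with few keratin UMIs was 1573 and 1331 UMIs.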

How the results depend on the processing

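By Krt12 share, 29 of 30 values over the alternatives that used both libraries moved by less than the spread between the libraries, and Fn1 was 3.75 with limits of 0.2 and 0.9 against 3.22. Each library alone gave 2.90 to 3.55 for Fn1, 2.71 to 3.13 for Postn, 1.69 to 2.10 for Tgfbi, -1.14 to -0.13 for Thbs1 and -5.18 to -3.61 for Tnc. Without thinning, the mean share of cells with a UMI at low and high Krt12 share was 6.96% and 50.5% for Fn1, 1.48% and 11.2% for Postn, 59.2% and 92.9% for Tgfbi, 9.49% and 6.97% for Thbs1 and 13.7% and 0.959% for Tnc.

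Counts of genes called depended on the tool and on the replicate block, here the library. Against 3443 genes by Krt12 share, 2492 by phase, 181 by immediate early share and 798 by Gpha2, the fit without the block called 1520, 208, 10 and 10, and DESeq2 called 1445, 473, 50 and 143. These are counts, and the overlap of the genes was not computed. Thinning, which tested fewer genes, gave 1036 by phase and 357 by Gpha2. By immediate early share, 387 were called without a filter and 846 over all kept cells, and by Gpha2, 50 in cells with 0 Krt13 UMIs. The cause was not tested. The part called higher moved from 43.7% to 59.1% by phase without the block. By immediate early share it moved from 63.5% to 86% with DESeq2, 75.6% with a score without Fos, Jun and Egr1, 100% without the block and 45.5% over all kept cells. By Gpha2 it moved from 35.8% to 16.8% with DESeq2 and 46% in cells with 0 Krt13 UMIs. Without a filter the median of all genes by Gpha2 was 0.12.

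Over all kept cells, 1 of the 5 genes passed by phase, where 2763 of 11716 genes did. By immediate early share 4 of the 5 passed, where 846 of 11181 genes did. All kept cells mix the keratin ranges on which the 5 genes were chosen, so nothing is read from these counts. By Gpha2, 0 passed with DESeq2, without the block, with thinning or with 0 Krt13 UMIs, against 1. With both libraries, the sign changed for Fn1 by phase (-0.079 over all kept cells, -0.0054 without the block, -0.034 with thinning), for Tgfbi by immediate early share (0.52 over all kept cells) and by Gpha2 (-0.53 with 0 Krt13 UMIs). In a single library it changed in 5 of 26 values, namely Fn1 by phase (-0.08) and by immediate early share (-0.06), Thbs1 by immediate early share (-0.02) and Tgfbi by phase (0.07) in library 2, and Tgfbi by Gpha2 (-0.18) in library 1. Of 107 values of the 5 genes in the fits of both libraries, 95 kept direction and side of the threshold, as did 100 of 165 list counts within 1.5 times. Depth limits Postn and Tnc, which had too few UMIs in some classes to be tested. With 2 libraries, each library alone gives a value and no test.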
